A study of Mus musculus with 11 samples.

Results

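The nuclear receptors examined here are 37 genes, chosen by name, of the 24421 gene entries measured in every sample. They comprise the progesterone receptor gene Pgr and other steroid hormone receptors, the lipid-sensing receptors for fatty acids, oxysterols, retinoids, vitamin D and xenobiotics, and the orphan receptors. The choice applied no cutoff on expression values, but it was made with earlier results of these data known. Pgr had moreover been singled out by the study from these same samples. Neither the set nor Pgr was therefore an independent choice.

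RNA was sequenced from eGFP+ astrocytes sorted by FACS from the olfactory bulb (OB, 3 samples), hippocampus (HC, 3 samples), cortex (CX, 2 samples) and brainstem (BS, 3 samples) of untreated Aldh1l1-eGFP mice aged 16 weeks. All 11 samples share the C57BL/6 strain and the reporter, a bacterial artificial chromosome transgene in which the Aldh1l1 promoter drives eGFP, so that a sorted cell was any cell that used this promoter. Male and female mice were used, and the labels tie no sample to an animal or a sex, so the p-values measure the spread between these samples. In a bulk sample, fewer cells of a type and less RNA per cell cannot be told apart.

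Most nuclear receptors are transcription factors that carry a zinc-finger DNA-binding domain and, toward the C-terminus, a ligand-binding domain that recruits coactivators or corepressors. Of the genes listed here, Nr0b1 and Nr0b2 lack the DNA-binding domain. Steroid receptors such as those for progesterone, estrogen and glucocorticoids are held by chaperones until hormone binds and then act mostly as homodimers, whereas the PPAR, LXR, RAR and vitamin D receptors pair with an RXR partner on DNA. Orphan receptors such as the ROR, COUP-TF and estrogen-related receptors have no established hormone of the classical kind, and several act on DNA as monomers. In astrocytes the family is known for glucocorticoid responses, for lipid and cholesterol handling and for clock control.

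Pgr, Rorb and Nr2f2 were the receptors called in CX by the rule given below, although none had an adjusted p under 0.05 there. The 250 bases before their RefSeq transcription starts on GRCm38.p6 are shown to give the context of these genes. Capitals mark every match, on either strand, to AGGTCA (the core element of many nuclear receptors), AGAACA (that of steroid receptors), TTGGCA (the NFI core), TATAAA (the TATA box) or GGGCGG (the GC box).
Pgr, chr9:8899583-8899832, plus strand: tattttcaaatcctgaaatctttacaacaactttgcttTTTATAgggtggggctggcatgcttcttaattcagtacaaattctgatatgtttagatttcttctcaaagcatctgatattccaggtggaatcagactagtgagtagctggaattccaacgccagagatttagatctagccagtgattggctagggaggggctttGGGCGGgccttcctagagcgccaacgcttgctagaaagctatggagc
Rorb, chr19:19111197-19111446, minus strand: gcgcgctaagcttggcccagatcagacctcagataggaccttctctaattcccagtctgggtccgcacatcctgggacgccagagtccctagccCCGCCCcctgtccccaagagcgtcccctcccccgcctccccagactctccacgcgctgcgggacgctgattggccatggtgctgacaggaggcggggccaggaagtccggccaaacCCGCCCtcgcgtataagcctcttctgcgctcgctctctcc
Nr2f2, chr7:70366747-70366996, minus strand: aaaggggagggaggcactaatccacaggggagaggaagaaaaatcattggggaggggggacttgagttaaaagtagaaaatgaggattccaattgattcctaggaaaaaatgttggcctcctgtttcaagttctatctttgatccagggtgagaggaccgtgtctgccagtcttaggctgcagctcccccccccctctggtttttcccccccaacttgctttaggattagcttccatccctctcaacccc

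The Pgr window held 43.6% G and C and 4 CpG dinucleotides, with 1 TATA-box match 212 bases before the start and 1 GC-box match 47 bases before it. The Rorb window was richer, at 66% G and C with 18 CpG and 2 GC-box matches, and the Nr2f2 window had 50% G and C, 1 CpG and no match to any of these letters. Over 32536 promoter windows of this length the median was 52.4% G and C and 6 CpG. No window of these 3 receptors held AGGTCA or AGAACA, which occur in 14.04% and 16.03% of all windows, and TATAAA and GGGCGG occur in 12.31% and 32.97%. Of the 35 listed receptors with a RefSeq window, 4 held AGGTCA, 1 AGAACA, 5 TTGGCA (12.27% of all windows), 6 TATAAA and 19 GGGCGG. Nr3c1 and Nr5a1 had no entry. The Nr2f2 window overlaps an exon of B130024G19Rik, a noncoding transcript on the opposite strand, and B130024G19Rik also shares 7.46% of the Nr2f2 exon bases. Whether the counting used strand is not stated, so reads of these overlapping genes cannot be told apart.

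Counted reads per sample ran from 2830746 (BS 3) to 14151670 (HC 3). The deposited value, called normalized read count below, is a sample's read count divided by a size factor, and 3 reads were worth a value of 1.10 in HC 3 and 6.31 in BS 3. Reads on the ribosomal precursor Rn45s made up 18% to 25.6% of the counted reads in CX and BS samples and 0.966% to 2.93% in OB and HC samples. This split followed region, and its part in the differences of CX or BS from OB or HC was not tested. All 10 astrocyte markers were detected in every sample, with summed values of 234813 to 280678 in OB, 273835 to 466887 in HC, 562174 to 636700 in CX and 97652 to 286916 in BS. Markers of other cells were present as well. Of the choroid plexus markers 10 of 10 were detected in each HC and BS sample, with sums of 73637 to 149071 in HC and 52901 to 249809 in BS, against 1840 to 5205 in CX and 274 to 361 in OB, where Folr1 and Slc4a5 were at 0. Oligodendrocyte markers summed to 52452 to 90300 in BS, 19256 to 20622 in CX, 18662 to 40039 in HC and 9741 to 16008 in OB. The 12 neuronal markers summed to 2995 to 4233 in BS, 1918 to 3421 in OB, 2383 to 3030 in CX and 1391 to 2594 in HC. HC 1 and BS 1 stood apart, HC 1 by the highest endothelial sum (3546) and BS 1 by the highest choroid plexus sum and the lowest astrocyte sum, and receptor calls that depend on them are given without them. Reads on the Y-linked genes Ddx3y, Eif2s3y, Kdm5d and Uty were found in OB 1 (1008), HC 1 (1896) and BS 3 (591) and in no other sample, so that both CX samples lacked them.

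A receptor was taken to pass the read floor when at least 2 samples of one region held at least 3 reads of it. By this rule 27 of the 37 receptors passed. The same number passed with a floor of 10 reads. Of these 27, 24 passed in each of the 4 regions, whereas Esr1, the gene of estrogen receptor alpha, missed the floor in CX, Esrrb missed it in OB and Rxrg missed it in BS.

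Among the 10 receptors below the floor, 5 had 0 reads in all 11 samples: Esr2 (estrogen receptor beta), Nr2e3 (a photoreceptor factor), Hnf4a (a liver and gut factor), Nr5a1 (SF-1, of steroidogenic tissue) and Nr0b1 (DAX-1). Nr1i2 and Nr5a2 had 2 reads each over all samples, and Nr1i3 and Nr0b2 had 1 each. Vdr, the vitamin D receptor, came closest with 17 reads in 5 samples. Its values reached 4.34 in OB 1, 9.46 in BS 1 and 4.21 in BS 3, and it was at 0 in HC and CX samples. A count of 0 allows up to 3 reads, a value of 1.10 to 6.31 by sample, and covers counting error only, so that lower expression was not detectable here.

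Levels were compared between receptors only after division by the summed exon length. On this per-kilobase scale Rorb ranked first, with a mean of 420.3 normalized reads per kb over the 11 samples, followed by Nr3c1 at 164, Rora at 119.6 and Ppara at 84.3. This order did not hold in each region, since Ppara (101) lay above Rora (82.1) in OB, and Esrrg (99.1) above Ppara (54.1) in BS. Nr2f1, Nr2f2, Esrrg, Nr3c2, Rxra and Nr2c2 lay between 34.9 and 47.3. Pgr ranked 23 of 37 at 3.62, and Esr1 was the lowest of those past the floor at 0.645. Rorb and Rora are retinoid-related orphan receptors, Nr3c1 is the glucocorticoid receptor and Ppara a fatty-acid sensor.

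**Figure D1:**
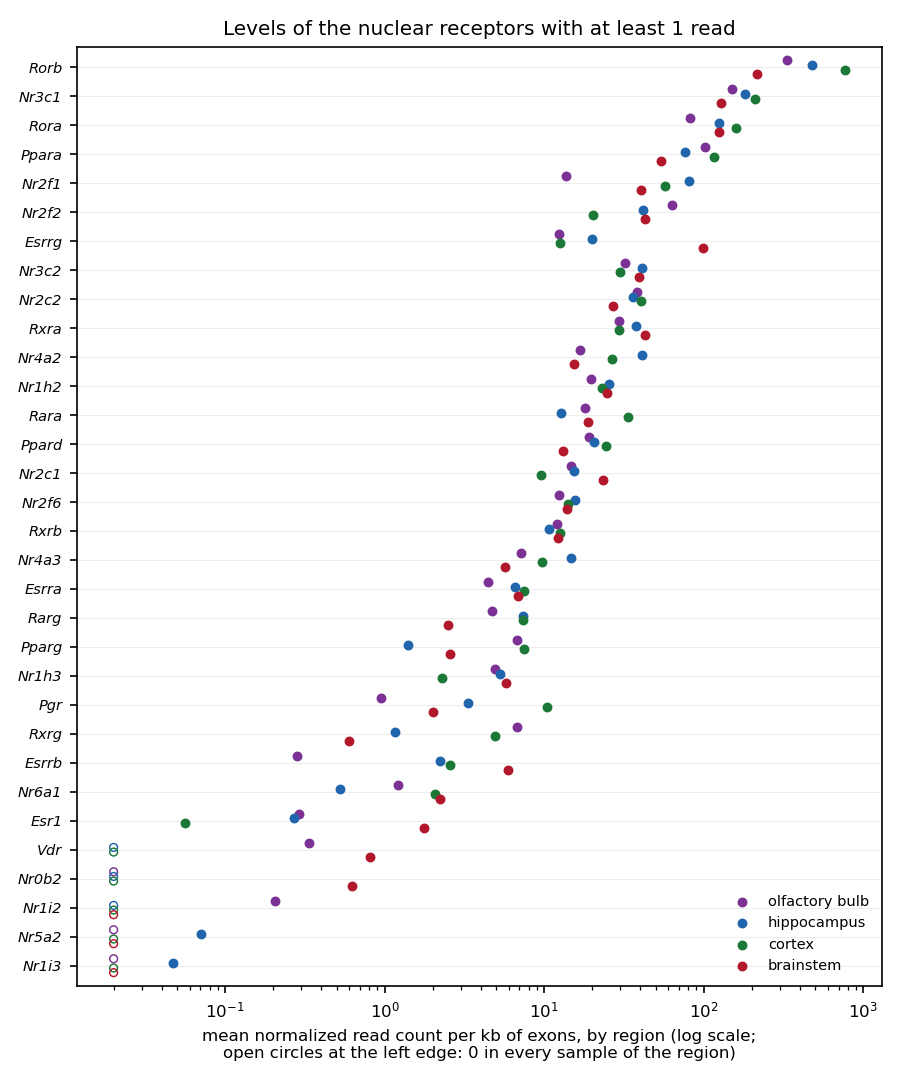
Mean normalized read count per kilobase of exon (x axis, log scale) of each nuclear receptor with at least 1 read (y axis, ordered by its mean over regions), with a filled point for each of the 4 regions and open circles at the left edge for regions where every sample was at 0. Rorb lies at the top at 420.3 over all samples, Pgr lies in the lower part with its CX point apart from the others, and the 5 receptors at the bottom, from Vdr down, did not pass the read floor.

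The share of single genes in the set was described by region. Rorb made up 47.0% ± 0.06 (SD, n = 2) of the summed per-kilobase level of all 37 receptors in CX, 36.2% ± 6.95 (SD, n = 3) in HC, 33.0% ± 0.81 (SD, n = 3) in OB and 21.5% ± 6.98 (SD, n = 3) in BS. HC 1 (28.2%) overlapped BS 2 (28.4%). Nr3c1 held a similar share everywhere, between 12.8% in CX and 14.9% in OB as region means. Pgr accounted for 0.64% in CX and 0.10% in OB.

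To ask which receptors set a region apart, each region was compared with the samples of the other 3 pooled. A receptor was called when its unadjusted p was under 0.01, its fold change over 1.5 and its value over 5 in at least 2 samples of one region. The study used this p and fold change, with a floor of over 5 RPM, the reads of a gene scaled to the depth of its library. The 4 comparisons share samples and are not independent. In OB, 4 of the 27 receptors tested were called, all lower (Esrrb, Nr2f1, Pgr and Rora), where 8.04% of all 13875 genes tested were called and 3.89% were called lower. In HC 0 receptors were called, where 1.28% of genes were. At an unadjusted p under 0.05 there were 5 receptors in limma (5.69% of genes), 3 in edgeR and 5 in DESeq2, and these tools also called 0. In CX 3 were called (Pgr and Rorb higher, Nr2f2 lower), against 2.77% of genes (1.02% higher and 1.74% lower). In BS 4 were called (Esrrg and Esr1 higher, Rorb and Ppara lower), against 9.03% of genes (3.98% higher and 5.05% lower). With a floor of over 5 RPM, taken over all counted reads and chosen after seeing the data, Esrrb in OB and Esr1 in BS were no longer called, which left 3 receptors in OB (7.36% of genes), 0 in HC (1.15%), 3 in CX (2.43%) and 3 in BS (8.3%). Only Nr2f1 in OB and Esrrg and Ppara in BS also had an adjusted p under 0.05, taken over all 13875 genes. Under that rule 4.54% of genes passed in OB, 0% in HC, 0.0144% in CX and 5.31% in BS.

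A single test over the 4 regions, an F-test in limma with adjusted p under 0.05, found 8 of the 27 receptors to differ, where 16.5% of all genes did. These were Nr2f1, Esrrg, Rorb, Pgr, Nr2f2, Ppara, Esrrb and Rora in order of p. Both corticosteroid receptors, both LXR genes, both RAR genes, all 3 RXR genes and both NR4A genes that were tested had adjusted p-values above that threshold. Without HC 1 and BS 1 the number was 7, with Ppara lost.

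**Figure D2:**
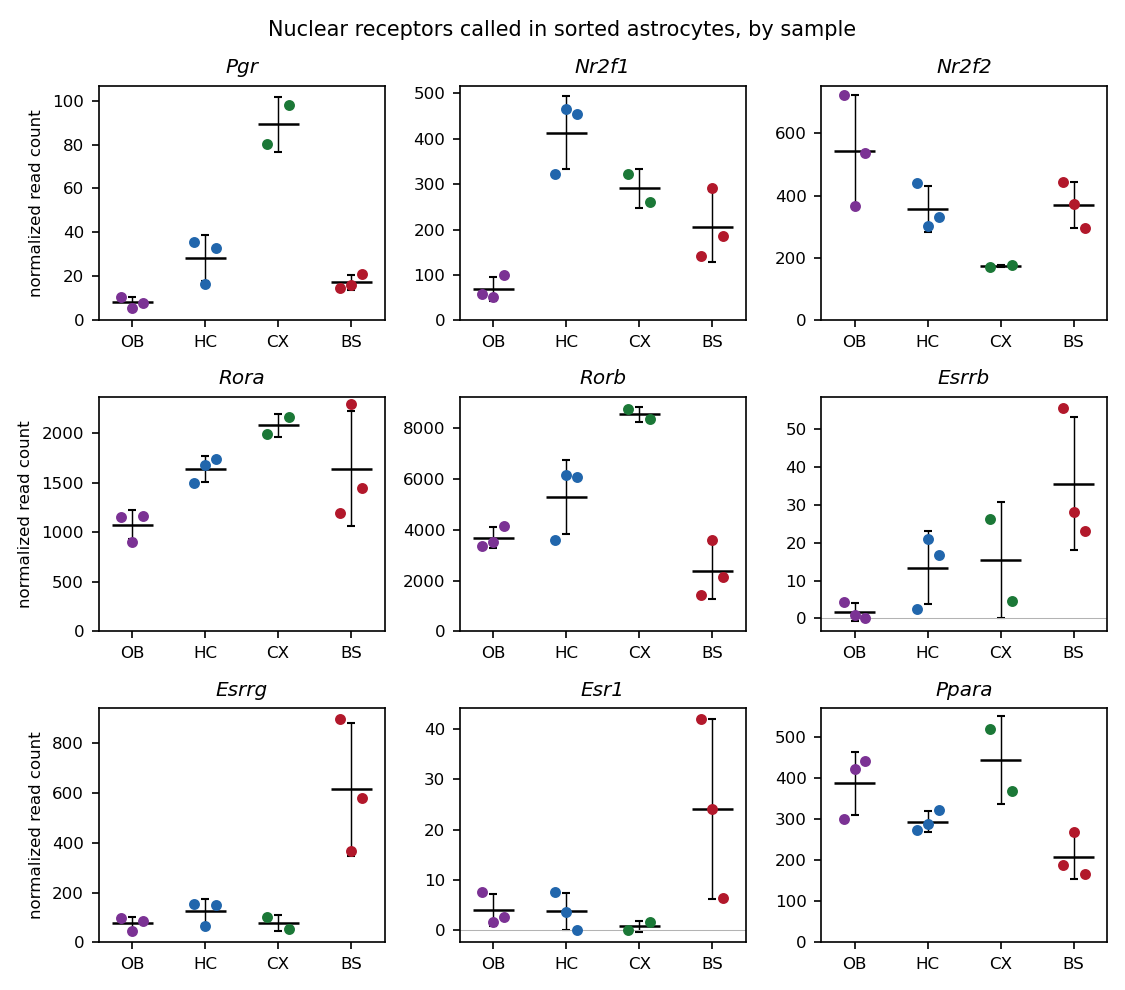
Normalized read count (y axis, linear, each panel with its own range) of the 9 receptors called in any comparison, in OB, HC, CX and BS (x axis). Points are samples, horizontal bars are means and error bars are ± 1 SD over 3 samples, or 2 in CX. Pgr and Rorb have both CX points above every other sample, Nr2f2 has both CX points below, Nr2f1 has all OB points below, and Esrrg has all BS points above.

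Among the 4 steroid hormone receptors tested, Pgr alone differed over the 4 regions. Pgr lies on chromosome 9 of GRCm38, from 8899833 to 8968611. Its normalized read count was 10.9, 5.53 and 8.08 in the OB samples, 35.6, 16.4 and 33.0 in the HC samples, 80.4 and 98.1 in the CX samples and 14.7, 16 and 21 in the BS samples. Both CX samples lay above all others and all OB samples below all others, while HC and BS samples overlapped. The reads behind these values were few, between 7 in OB 2 and 90 in HC 3, with 64 in each CX sample. Pgr differed over the 4 regions with an adjusted p of 0.00479, which stayed under 0.05 in each of the 20 settings tried. By pairs of regions, CX exceeded OB by 3.34 ± 0.57 (log2, SE; adjusted p = 0.00298) and BS by 2.31 ± 0.57 (adjusted p = 0.0172). CX exceeded HC by 1.69 ± 0.57 with an adjusted p of 0.214, and HC and BS differed by 0.63 ± 0.51 (adjusted p = 0.633), so that the order CX, HC, BS, OB was not resolved between neighbours by this test.

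Against all other samples pooled, Pgr in CX had a log2 fold change of 2.45 ± 0.61 (SE) that was called without passing the adjusted threshold (adjusted p = 0.241). This call rested on both CX samples, since without CX 1 the fold change was 2.59 (unadjusted p = 0.0124) and without CX 2 it was 2.30 (unadjusted p = 0.0227). Scaling all values to the 10 astrocyte markers gave a log2 fold change of 1.99 (unadjusted p = 0.0141), also short of the call. The median of all genes moved to -0.48. The scaling divided each sample by a factor from the mean log2 value of these markers, not from their sum. The factor was 1.32 in CX 1, 1.28 in CX 2 and 0.534 to 1.23 in the other samples. In OB, Pgr was lower by 1.84 ± 0.60 (log2, SE; adjusted p = 0.110), and that call was lost when any of OB 1, OB 2, OB 3, HC 1, HC 3, CX 1 or CX 2 was left out, with unadjusted p-values of 0.0128 to 0.0414, with the replicate number as a block (unadjusted p = 0.0156), and with no filter on low values (unadjusted p = 0.0114). Within OB, HC and BS the highest Pgr value belonged in each case to the sample with Y-linked reads, and CX had no such sample. The part of sex in these values was not tested. By antibody staining, the study reported Pgr protein in neurons of all regions, and in astrocytes of CX only. The part of neurons in the Pgr values was not tested.

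Esr1 (chromosome 10, 4611593 to 5005614) was near the read floor except in BS. Its value was 7.60, 1.58 and 2.69 in OB, 7.5, 3.65 and 0 in HC, 0 and 1.53 in CX and 42.1, 24 and 6.31 in BS. The BS samples were the highest on average but spread widely, and BS 3, with 3 reads, overlapped OB and HC. In BS, Esr1 was higher by 2.69 ± 0.85 (log2, SE; adjusted p = 0.0831), and the call was lost without OB 2 (unadjusted p = 0.0111), without HC 3 (unadjusted p = 0.0105), with a pseudocount of 0.25 (unadjusted p = 0.0167) and with the floor in RPM. Without BS 1, without BS 2 or without both HC 1 and BS 1 it missed the filter on low values. With no filter its log2 fold change there was 2.13 (unadjusted p = 0.0371), 2.52 (unadjusted p = 0.0215) and 2.34 (unadjusted p = 0.0219), and it was not called. It did not differ over the 4 regions (adjusted p = 0.113), although CX and BS differed as a pair (adjusted p = 0.0494). Together with the 0 reads of Esr2, this left the classical estrogen receptors at the low end of the set.

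The corticosteroid receptors were abundant, and neither was called in a region or differed over the 4 regions. Nr3c1, the glucocorticoid receptor, ranged from 708 in BS 1 to 1677 in CX 1, and its region means ran from 990.4 ± 250.5 (SD, n = 3) in BS to 1618 ± 83.4 (SD, n = 2) in CX. Its adjusted p over the 4 regions was 0.155. The CX samples lay above the BS samples, by 0.74 ± 0.25 (log2, SE; adjusted p = 0.0720). Nr3c2, the mineralocorticoid receptor, ranged from 162 to 317 with an adjusted p of 0.444. Per kilobase, Nr3c1 made up 76.6% ± 1.6 (SD, n = 3) of the pair in BS and 87.6% ± 3.0 (SD, n = 2) in CX, with OB and HC between them.

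The estrogen-related receptors, orphan factors that act on mitochondrial and energy genes, included the gene called in BS under every setting. Esrrg (chromosome 1, 187608791 to 188214885) had values of 97.7, 46.6 and 86.2 in OB, 156, 67.6 and 150.1 in HC, 101 and 55.2 in CX and 899, 367 and 581 in BS. All 3 BS samples lay above every other sample, and the other regions overlapped. On average BS was 6.48-fold above the rest. The log2 fold change was 2.70 ± 0.37 (SE; adjusted p = 0.000685), and this call held in all 24 settings tried, among them the exclusion of HC 1 and BS 1 and the scaling to astrocyte markers. In pairs BS exceeded each of OB, HC and CX, with adjusted p-values of 0.000142, 0.00298 and 0.000663.

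Esrrb (chromosome 12, 86361117 to 86521628), on the other hand, was lowest in OB. It had values of 4.34, 0.789 and 0 in OB, 2.5, 21 and 16.9 in HC, 26.4 and 4.60 in CX and 55.7, 28 and 23.2 in BS. The OB and BS samples did not overlap, whereas HC 1, with 4 reads, fell within the OB range and CX 2, with 3 reads, close to it. In OB, Esrrb was lower by 3.04 ± 0.83 (log2, SE; adjusted p = 0.0533), and the call was lost without OB 2 (unadjusted p = 0.0120) or OB 3 (unadjusted p = 0.0211) and with the floor in RPM. Its adjusted p over the 4 regions was 0.0345 and passed in 13 of 20 settings. It did not pass with edgeR (0.0799 with TMM factors and 0.0767 with RLE factors), with no filter (0.0670) or without OB 2 (0.109), OB 3 (0.136), BS 1 (0.0966) or BS 3 (0.0661). OB and BS differed as a pair by 4.01 ± 0.92 (adjusted p = 0.00774). Esrra, the broadly expressed member, had region means of 19.4 to 32.6 and an adjusted p of 0.817 over the 4 regions. Per kilobase, Esrrg made up 88.0% ± 2.8 (SD, n = 3) of the 3 genes in BS, between 43.4% and 79.7% in single samples of the other regions.

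The oligodendrocyte sum was higher in each BS sample than in any other sample, and the choroid plexus sum was high in BS and HC. The neuronal sum was highest in BS 1 (4233) and BS 3 (4224), while BS 2 (2995) lay within the OB range. The part of any of these cells in the BS values of Esrrg, Esr1 and Esrrb was not tested. In HC, where choroid plexus sums overlapped those of BS, Esrrg was 67.6 to 156. Within HC, BS and CX the samples had the same order by Esrrg as by choroid plexus sum, but within OB they did not. BS 2, BS 3 and BS 1 had sums of 52901, 122484 and 249809 and Esrrg values of 367, 581 and 899. HC 2, HC 3 and HC 1 had sums of 73637, 139583 and 149071 and Esrrg values of 67.6, 150 and 156. By oligodendrocyte sum the order of samples matched that of Esrrg within CX only. In BS 1, BS 2 and BS 3 the oligodendrocyte sum was 52452, 63118 and 90300.

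The ROR receptors bind DNA as monomers and share target sites with the REV-ERB repressors of the circadian clock. Rorb (chromosome 19, 18930605 to 19111196), the receptor with the highest level per kilobase, had values of 3380.4, 3515 and 4163 in OB, 3617, 6149 and 6097 in HC, 8766 and 8350.0 in CX and 1428, 3602 and 2136 in BS. Both CX samples were above all others, and the BS samples, apart from BS 2, were below all others. The log2 fold change was 1.30 ± 0.43 (SE; adjusted p = 0.347) in CX and -1.21 ± 0.34 (SE; adjusted p = 0.0548) in BS. Over the 4 regions the adjusted p was 0.00287 and stayed under 0.05 in all 20 settings, and CX and BS differed as a pair by 1.94 ± 0.32 (log2, SE; adjusted p = 0.00112).

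The region calls of Rorb were less stable than its difference over regions. The CX call sat close to the threshold and held in 13 of 24 settings. It was lost without OB 1, OB 2, OB 3, HC 1, CX 1, CX 2, BS 2 or BS 3, with unadjusted p-values of 0.0107 to 0.0586, with edgeR and TMM factors (unadjusted p = 0.0125), with the replicate number as a block (unadjusted p = 0.0121) and with no filter (unadjusted p = 0.0106). The BS call was lost without BS 1 (log2 fold change -0.89, unadjusted p = 0.0342), without BS 3 (unadjusted p = 0.0149), and without both HC 1 and BS 1 (log2 fold change -0.96, unadjusted p = 0.0228). BS 1 had the lowest Rorb value of all samples and the lowest astrocyte marker sum, and scaling to the astrocyte markers left Rorb called in BS at a log2 fold change of -0.70 (unadjusted p = 0.00648).

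Rora (chromosome 9, 68653786 to 69388246) had values of 1151, 904 and 1165 in OB, 1492, 1677 and 1736 in HC, 1991 and 2159 in CX and 1190.1, 2292 and 1439.7 in BS. All 3 OB samples lay below every other sample, and the BS samples spanned HC and CX. In OB it was lower by 0.68 ± 0.20 (log2, SE; adjusted p = 0.0702), a call lost only without OB 2 (unadjusted p = 0.0322). Its adjusted p over the 4 regions was 0.0438 and passed in 8 of 20 settings, with values up to 0.191, the highest being without OB 2. Per kilobase, Rorb made up 62.4% ± 3.4 (SD, n = 3) of the pair in BS and 78.6% to 82.9% in the other regions, and the BS samples (58.6% to 65.0%) did not overlap the others (74.1% to 83.9%).

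The COUP-TF genes Nr2f1 and Nr2f2 encode orphan receptors that help pattern the developing forebrain, and here the region with the lowest level was not the same for both. Nr2f1 (chromosome 13, 78188973 to 78199757) had values of 58.6, 50.5 and 99.1 in OB, 322, 466 and 453 in HC, 322 and 261 in CX and 142, 292 and 185 in BS. All OB samples were below every other sample. It was lower in OB by 2.08 ± 0.34 (log2, SE; adjusted p = 0.00255), which held in all 24 settings, and OB differed from HC, CX and BS in pairs with adjusted p-values of 6.24e-05, 0.00166 and 0.00245. HC was the highest region, and its lead over CX of 0.49 ± 0.34 did not pass (adjusted p = 0.606).

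Nr2f2 (chromosome 7, 70351944 to 70366735) had values of 724, 368 and 538 in OB, 442, 301 and 332 in HC, 172 and 176 in CX and 444, 373 and 297 in BS. Both CX samples were below every other sample, and the other regions overlapped. It was lower in CX by 1.22 ± 0.29 (log2, SE; adjusted p = 0.209), and the call was lost only without CX 1 (log2 fold change -1.2, unadjusted p = 0.0110), where a single CX sample was left and was assumed to vary like the others. The adjusted p over the 4 regions was 0.00586, and 0.0517 without CX 1. CX differed in pairs from OB (adjusted p = 0.00322) and BS (adjusted p = 0.0212) and had an adjusted p of 0.0982 against HC. As the share of the pair, per kilobase, Nr2f1 made up 18.2% ± 5.9 (SD, n = 3) in OB, 47.9% ± 11.4 (SD, n = 3) in BS, 65.8% ± 9.2 (SD, n = 3) in HC and 73.7% ± 3.2 (SD, n = 2) in CX. The OB samples lay at 12.1% to 23.8% and overlapped no other region.

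The remaining receptors of this group that were tested did not pass over the 4 regions. Nr2c2 ranged from 315 to 679.7 (adjusted p = 0.187 over the 4 regions), Nr2c1 from 30.2 to 194 (adjusted p = 0.490), and Nr2f6 from 16.8 to 60.9 (adjusted p = 0.911). Nr2f6 shares 54.4% of its exon bases with Ocel1 and Nr2c2 31.2% with other genes, so their levels may include reads of those genes.

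**Figure D3:**
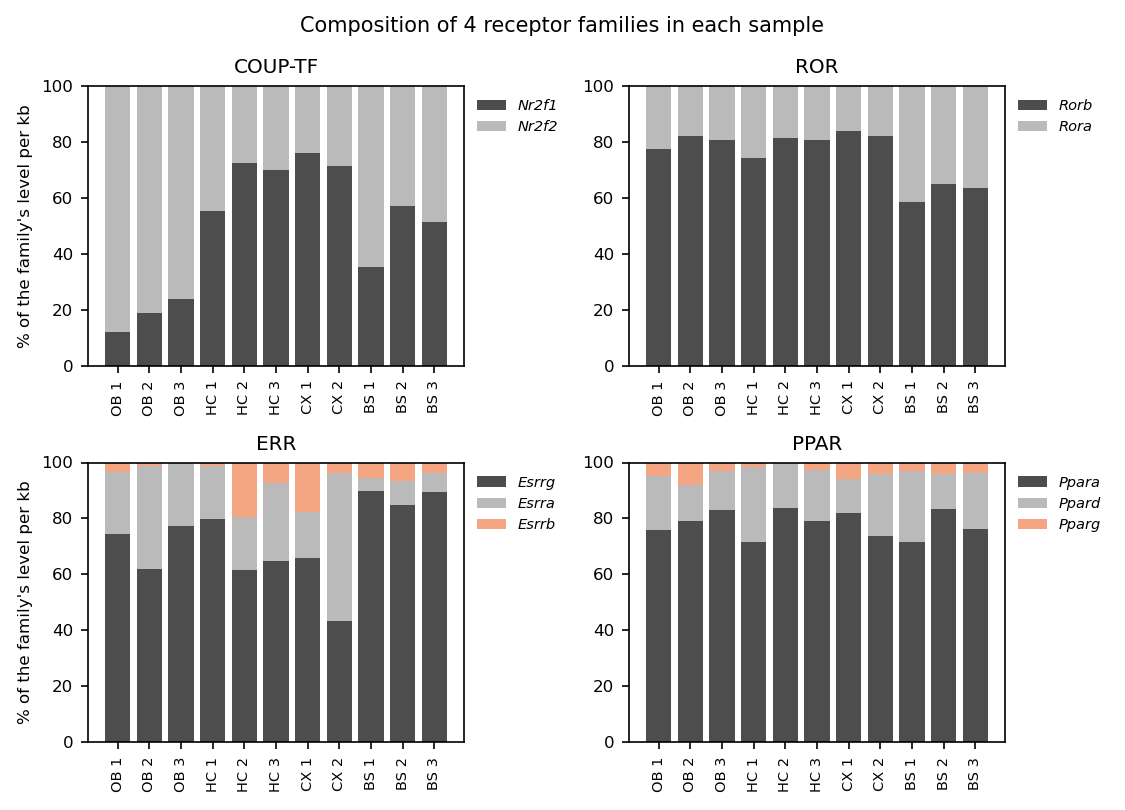
Share of each gene (stacked bars, y axis in percent) in the summed level per kilobase of 4 receptor families in each of the 11 samples (x axis). In the COUP-TF panel Nr2f1 holds 12.1% to 23.8% in OB and 71.5% to 76.0% in CX, in the ROR panel Rorb holds 58.6% to 65.0% in BS, in the ERR panel Esrrg reaches 84.8% to 89.7% in BS, and in the PPAR panel Ppara has region means of 77.0% to 79.3%.

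The PPAR receptors are fatty-acid sensors, with Ppara driving fatty-acid oxidation. Ppara (chromosome 15, 85734983 to 85802819) had values of 299.7, 424 and 441 in OB, 273, 288 and 323 in HC, 520.1 and 368 in CX and 188, 268 and 166 in BS. All 3 BS samples lay below every other sample. It was lower in BS by 0.81 ± 0.22 (log2, SE; adjusted p = 0.0451), and the call was lost without BS 1 (unadjusted p = 0.0126) or BS 3 (unadjusted p = 0.0206). Scaled to the astrocyte markers, whose sum was lowest in BS 1, its log2 fold change was -0.31 (unadjusted p = 0.221), where the same scaling moved the median of all genes to 0.51. The adjusted p over the 4 regions was 0.0187, and it was 0.0658 without CX 1, 0.0555 without BS 1, 0.0833 without BS 3, 0.0639 without both HC 1 and BS 1, and 0.615 after scaling. Ppard, expressed in many tissues, ranged from 80.1 to 216 and was not called in BS (log2 fold change -0.67 ± 0.23, SE; adjusted p = 0.114), and Pparg, the adipose regulator, ranged from 0 to 33.2 with an adjusted p of 0.127 over the 4 regions. Ppara made up 77.0% to 79.3% of the family's level per kilobase as region means.

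Among the retinoid receptors 0 of 5 differed over the 4 regions. Rxra, the common dimer partner, ranged from 121 to 267, Rxrb from 32.6 to 64.1, and Rxrg from 0 to 28.2. Rxrg was higher in OB than in BS by 2.73 ± 0.83 (log2, SE; adjusted p = 0.0367), with OB values of 28.2, 6.32 and 11.9 and BS values of 2.1, 2 and 0. Rara, a retinoic acid receptor, had its 2 highest values in CX (155 and 138, against 31.2 to 96.7 elsewhere), a difference of 1.07 ± 0.36 (log2, SE) at an unadjusted p of 0.0103, just outside the call. It was called with edgeR and with DESeq2. Rarg ranged from 4.21 to 47.3 and had an adjusted p of 0.210.

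The LXR, NR4A and NR6 genes did not differ over the 4 regions in this test. The oxysterol receptor Nr1h2 ranged from 51.3 to 102 (adjusted p = 0.746) and exceeded Nr1h3, at 3.77 to 25.2 (adjusted p = 0.705), making up 69.5% (BS 1) to 93.0% (CX 1) of the pair per kilobase in single samples. Nr4a2, an immediate early receptor, had values of 385, 82.2 and 30.5 in HC, and HC 1 was the highest of all samples. In the other regions it lay between 39.9 and 117, and its adjusted p was 0.726. Nr4a3 ranged from 10 to 108 (adjusted p = 0.241), and Nr6a1, known from germ cells, from 2.74 to 38.9 (adjusted p = 0.309).

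**Figure D4:**
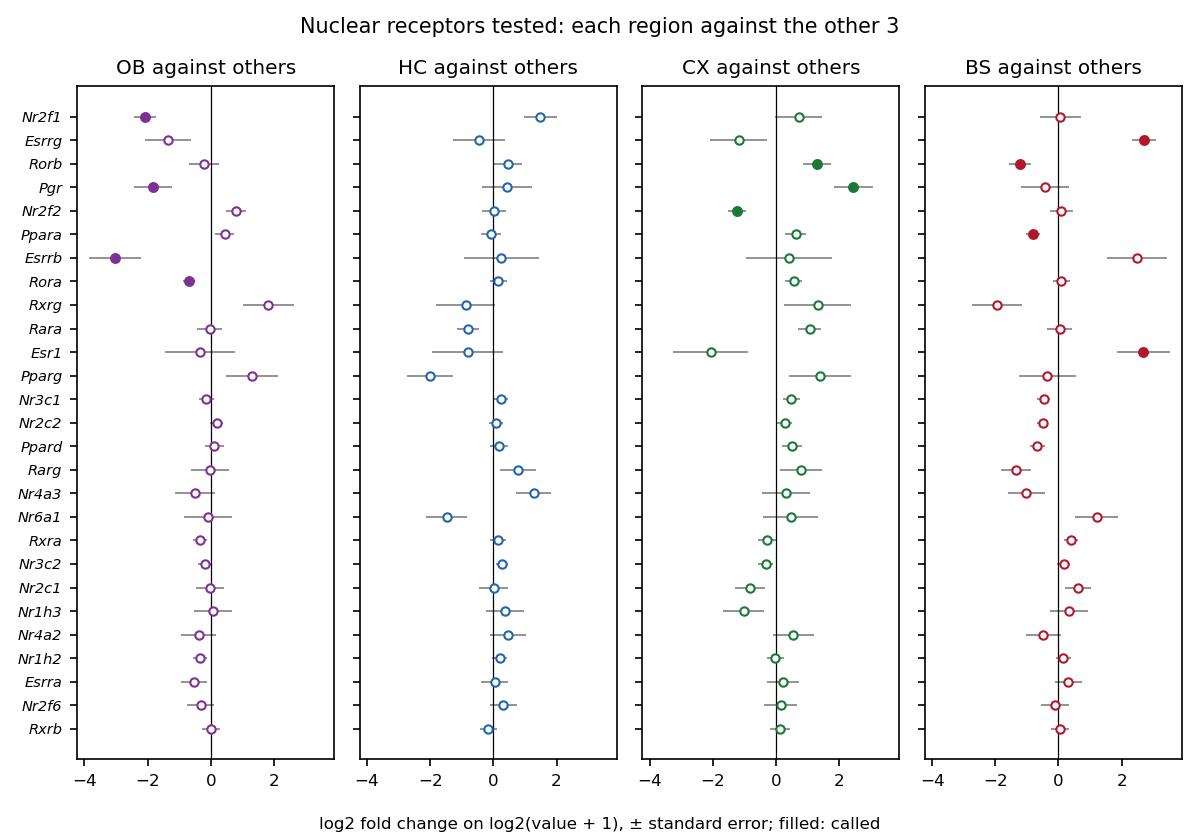
Log2 fold change (x axis, on log2 of the value plus 1) of each of the 27 receptors tested (y axis, ordered by p over the 4 regions) for each region against the other samples. Error bars are ± 1 SE and filled points are called. In OB the 4 filled points lie left of 0, HC has none, CX has Pgr and Rorb on the right and Nr2f2 on the left, and BS has Esrrg and Esr1 on the right and Rorb and Ppara on the left.

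Pairs of regions were then compared in a single fit, with p-values adjusted over all genes in each pair. Of 162 comparisons (27 receptors in 6 pairs), 19 had an adjusted p under 0.05. CX and BS differed in 6 receptors, where 10.9% of all genes differed, with Pgr, Rorb and Ppara higher in CX and Esr1, Esrrg and Nr2f2 higher in BS. OB and BS differed in 5 (Esrrb, Esrrg, Nr2f1, Ppara and Rxrg), against 15% of genes, and OB and CX in 5 (Nr2f1, Nr2f2, Pgr, Rora and Rorb), against 4.91%. HC and BS differed in Esrrg and Rorb, against 4.63%, and OB and HC in Nr2f1 only, against 7.11%. HC and CX differed in 0 receptors, against 1.23% of genes.

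The median log2 fold change of the 27 receptors was -0.19 in OB, 0.16 in HC, 0.41 in CX and 0.05 in BS, beside 0.02, 0.02, -0.03 and 0.02 over all genes tested.

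Genes that work with these receptors were listed by role, and 28 of the 101 that were tested differed over the 4 regions, where 16.5% of all genes did. Among 12 further nuclear receptors outside the set, 9 were tested and 2 differed. Nr2e1, the neural stem cell factor Tlx, had region means of 430.1 ± 64.6 (SD, n = 3) in OB, 708 ± 225 (SD, n = 3) in HC, 973 ± 123 (SD, n = 2) in CX and 3.86 ± 3.38 (SD, n = 3) in BS. Nr1d1, a REV-ERB repressor, was lower in OB by 0.62 (log2; adjusted p over the 4 regions 0.0174).

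Of 16 coregulators 2 differed over the 4 regions (12.5%, beside 16.5% of all genes), Tbl1x and Ncor1, both corepressor subunits. Of 10 steroid receptor chaperones Hsp90aa1 alone differed (adjusted p = 0.0369), with region means from 2679 ± 47.8 (SD, n = 3) in OB to 5328 ± 1942 (SD, n = 3) in BS.

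Another list held genes that make, remove or carry the ligands. Of 21 listed, 14 were tested and 7 differed. Hsd11b1, which regenerates active glucocorticoid, had a mean of 111 ± 33.5 (SD, n = 3) in OB and 524 to 767 in the other regions. Aldh1a1, a retinoic acid synthesis enzyme, had a mean of 4703 ± 2518 (SD, n = 3) in BS and 590.5 to 1139.9 elsewhere, and Cyp46a1, the cholesterol 24-hydroxylase, was lowest in BS at 60.6 ± 22.1 (SD, n = 3) and highest in CX at 205 ± 11.2 (SD, n = 2).

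The target gene lists held 6 to 15 tested genes each, and the share that differed over the 4 regions ran from 8.33% for glucocorticoid receptor targets to 57.1% for retinoic acid receptor targets, beside 16.5% of all genes. Of 13 progesterone and estrogen receptor targets 6 were tested, 2 differed (Igf1 and Greb1), both called higher in OB. Greb1 had a mean of 159.9 ± 28.1 (SD, n = 3) in OB and 17.8 ± 12.2 (SD, n = 2) in CX, and Igf1 458 ± 73.3 (SD, n = 3) and 67.5 ± 2.24 (SD, n = 2). Of 12 glucocorticoid receptor targets Sgk1 alone differed, lower in OB by 2.38 (log2; adjusted p over the 4 regions 0.00225). Of 15 PPAR targets 4 differed over the 4 regions. In BS 1 of the 15 was called higher and 2 lower, beside 3.98% and 5.05% of all genes. The uncoupling protein gene Ucp2 was higher in BS by 1.89 (log2). Angptl4, a secreted inhibitor of lipoprotein lipase, was lower in BS by 1.90 and also higher in OB.

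Of 8 LXR targets 3 differed, among them Apoe, which was lower in BS by 1.00 (log2), and Smpdl3a, higher in CX by 0.72. Of 8 retinoic acid receptor targets 7 were tested and 4 differed. Cyp26b1, the retinoic acid-degrading enzyme, had a mean of 845 ± 443 (SD, n = 3) in BS and 0.718 ± 1.24 (SD, n = 3) in OB, and Stra6, a retinol transporter, was lowest in CX at 14.4 ± 0.903 (SD, n = 2). Of 10 ROR and REV-ERB targets 4 differed, with the clock gene Arntl lower in BS by 1.28 (log2) and Npas2 lower in OB by 1.2. The part of other cell types in these values was not tested.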

How the data were processed

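RNA-seq of sorted astrocytes from 4 brain regions (11 samples) was analysed. The authors prepared total RNA with rRNA depletion (NuGEN Trio), mapped reads to mm10 with STAR 2.5.0a, assigned them to UCSC transcripts and scaled the resulting counts with DESeq2 1.20.0. The deposited values are a normalized signal per gene, and 100% of them were whole multiples of 1 read per sample (tolerance 0.01 reads), so reads were recovered. Depth was 2830746 to 14151670 reads.

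Genes passing edgeR's filterByExpr were tested by two-sided limma 3.58.1 (R 4.3.3) tests of log2(value + 1), a mean-variance trend included, with Benjamini-Hochberg adjustment over 13875 genes. A region was set against the pooled others, and a fit with a mean for each region gave the F-test and the pairs. edgeR 4.0.16 (TMM and RLE factors) and DESeq2 1.42.0 on recovered reads, a pseudocount of 0.25, no filter, the replicate number as a block, other references and thresholds, stricter floors and leaving out each sample were alternatives. Leaving out HC 1 and BS 1, scaling to 10 astrocyte markers, combining a mean for each region with the block or with edgeR, a floor in RPM, and for Esr1 leaving out BS samples with no filter were chosen after seeing the data. The pipeline was tested on simulated data.

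Values of every sample are given for receptors called in a region or differing over the 4 regions, and for Pgr. From each other list at most the 3 genes with the smallest p over the 4 regions are named, and 1 such gene is not reported here. The values of Nr4a2, Rara, Rxrg and Vdr were singled out after they were seen. Members and lists were chosen with earlier results of these data known. Gene positions and exon lengths are those of GENCODE M21 on GRCm38, and promoters are from RefSeq on GRCm38.p6. Python 3.11.15 with numpy 2.4.6, pandas 2.3.3 and matplotlib 3.10.9 was used.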

Additional observations from a re-analysis of the deposited data

How the results depend on the processing

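Depth limits the low receptors: Pgr, Esr1 and Esrrb rest on at most 90 reads per sample, and CX has 2 samples. With an adjusted p under 0.05 the calls fell to 1 in OB, 0 in CX and 2 in BS, and with each other region taken separately to 1 each in OB (Nr2f1), CX (Nr2f2) and BS (Esrrg). With a mean for each region, 3 receptors were called in HC (Nr2f1, Pparg and Rara) and 5 in CX, where 4.8% and 7.72% of all genes were called. Combined with the replicate block or with edgeR, this reference gave 1 in HC and 5 in CX each time; the cause was not tested. Leaving out each sample in turn gave 1 to 4 calls in OB, 0 to 1 in HC, 0 to 4 in CX, 2 to 5 in BS, 5 to 8 receptors over the 4 regions, 13 to 25 of the pairs, and 27 past the floor every time. The OB count was 1 without OB 2 and 2 without OB 3, the CX count 0 without CX 1 and 1 without CX 2, and the BS count 2 without BS 1 or BS 3. Without CX 1 or BS 3 the count over the 4 regions was 5. Where 1 CX sample was left, it was assumed to vary like the other samples. In HC, 1 receptor was called without HC 3 (Pparg) and 1 without CX 1, CX 2 or BS 2 (Nr2f1).

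Over all regions, same-numbered samples did not as a rule deviate together. Of 15 such pairs 3 had a correlation over 0.1 (-0.160 to 0.25, against -0.224 to 0.183 for the other 30 pairs), so the numbers were not taken as pairs. Between OB and HC, however, same-numbered samples correlated at 0.195, 0.074 and 0.25, against -0.224 to 0.0283 for differently numbered ones. OB 1 and HC 1 were also the samples of these regions with Y-linked reads. Whether they share an animal was not tested. CX 1 and BS 1 had 0 Y-linked reads, and BS 3 had 591 where OB 3 and HC 3 had 0. A replicate number therefore joined samples with and without Y-linked reads. With the replicate number as a block, 3 receptors were called in OB, 0 in HC, 2 in CX and 4 in BS, with 8 over the 4 regions. Counts of receptors given in this section without a share of all genes were not compared with that share. Scaling to astrocyte markers moved the median of all genes to 0.51 (log2) in BS and -0.48 in CX, and the split of genes called higher and lower from 552 and 701 to 1381 and 254 in BS and from 142 and 242 to 18 and 325 in CX. Over the 4 regions DESeq2 alone passed Esr1 (adjusted p = 0.0404). None of the fold changes of the 9 receptors called reversed under the alternatives run for them.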
